A study of Malus domestica with 18 samples.

Results

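The change in gene expression of unbagged 'Golden Delicious' apple skin between 30 and 60 days after flowering (DAF30 and DAF60) was examined in 6 of the 18 RNA-seq libraries of the series, 3 of CK2 (unbagged fruit, DAF60) and 3 of CK1 (unbagged fruit, DAF30). Each library was made from the peeled and mixed skin of 3 fruits, and per the study's methods 3 trees served as the replicates of a group. Which tree a library came from, and whether russeted and smooth areas were separated, are not stated there. The other libraries were of unbagged skin at DAF150 (CK3) and of skin from fruit that had been closed in light-proof double-layer paper bags at DAF20 (T1, T2 and T3 at DAF30, DAF60 and DAF150), 3 libraries each, and these share the cultivar and the sampling with CK1 and CK2. Of the 2856 genes in the deposited table, 1399 reached 1 FPKM (mapped fragments scaled to gene length and to the size of the library) in at least 3 of the 18 libraries and were tested, each as the difference of the CK2 and CK1 means of log2(FPKM + 1).

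Russeting is the replacement of the smooth, waxed apple skin by a rough brown layer of cork. Where the cuticle cracks, cells below it divide to form a periderm, whose walls are filled with suberin, a polyester of long-chain fatty acids, glycerol and ferulic acid, together with lignin-like phenolics and waxes. Suberin monomers are made by fatty acid omega-hydroxylases of the CYP86 family, glycerol-3-phosphate acyltransferases and feruloyl transferases, and are carried to the wall by ABCG transporters.

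The table was not a list of all apple genes. Each of its 2856 genes differed at least 2-fold between bagged and unbagged skin in the deposited comparison of T with CK, and 1138 of the 1399 genes tested had been listed as lower in T, against 261 as higher in T. The stage was not used to choose the genes, but the CK2 and CK1 libraries were among those compared with T, so the gene groups described here are no independent evidence of a direction. The CK2 libraries had at least 1 FPKM at 1108 to 1278 genes of the table, against 886 to 1009 in the CK1 libraries, and the FPKM of the table summed to 19572 to 28927 in CK2 and 26747 to 30988 in CK1. Pearson's r over the tested genes was 0.895 to 0.926 among CK2 libraries, 0.936 to 0.955 among CK1 libraries and 0.677 to 0.870 between CK2 and CK1 libraries. The CK2 libraries were thus less alike than the CK1 libraries, and every pair within a stage was more alike than any pair across stages. As for the tissue, cuticle and photosynthesis genes were present in all 6 libraries, whereas the secondary wall cellulose synthases CESA4 and CESA7, markers of xylem, had at most 0.27 FPKM in CK2 and at most 2.37 FPKM in CK1, and a seed storage globulin (11S) was listed at 0 in CK2 and at 0 to 0.01 FPKM in CK1. Other genes of the same lists were expressed. The tested pollen and seed genes summed to 7.09 to 9.29 FPKM in CK2 and 25.9 to 59.1 FPKM in CK1. The tested secondary wall genes summed to 124 to 273 FPKM in CK2 and 297 to 421 FPKM in CK1. The share of other tissue was not tested. The p-values measure the spread between libraries of the same group, each a pool of fruit. That spread was estimated over all 18 libraries in 6 groups, not over CK1 and CK2 alone.

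More genes of the table were higher than lower at DAF60. At an adjusted p of at most 0.05 (limma, Benjamini-Hochberg over the 1399 genes), 438 genes (31.3%) were higher in CK2 and 189 (13.5%) lower, and 772 (55.2%) did not pass. At the thresholds of the study, 2-fold and an adjusted p no higher than 0.001, there were 155 DEGs (differentially expressed genes) higher in CK2 (11.1%) and 45 lower (3.22%). In all 200 DEGs every CK2 library lay on the same side of every CK1 library, as it did in 726 of the 1399 genes (51.9%). Of the 155 DEGs that rose, 111 had a CK1 mean under 1 FPKM, and on the log2(FPKM + 1) scale the fold of such low genes is understated. The median log2 difference over all genes tested was 0.25.

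The number of DEGs depended on each library. It was 71 higher and 23 lower without CK1_1, 41 and 17 without CK1_2, 71 and 42 without CK1_3, 50 and 26 without CK2_1, 103 and 16 without CK2_2, and 186 and 29 without CK2_3. The libraries were also scaled to a common median or to a common distribution. The median difference then moved by -0.56 or -0.28, the calls at an adjusted p of at most 0.05 were 237 higher and 418 lower or 269 higher and 267 lower, and group directions are therefore given below with the scalings that turn them. In a fit to only the 6 libraries no gene met both DEG thresholds by limma, with 657 genes under an unadjusted p of 0.05, and the lowest adjusted p was 0.00672.

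**Figure D1:**
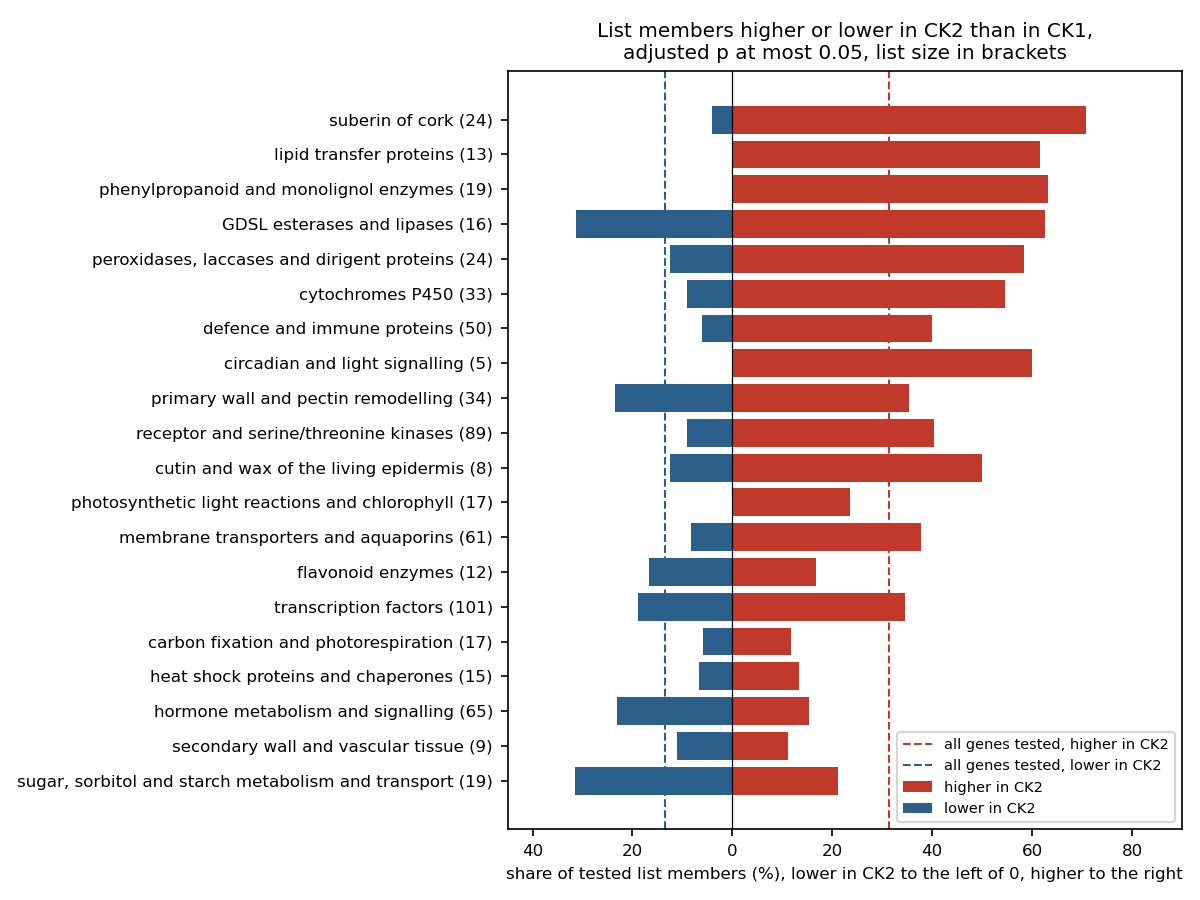
Share of the tested members of each gene list, in percent, that were higher in CK2 than in CK1 (right of 0) or lower (left of 0) (adjusted p no higher than 0.05, number of members tested in brackets). The dashed lines mark the shares over all 1399 genes, 31.3% higher and 13.5% lower. The suberin list had 17 of 24 members higher and 1 lower, and the list of sugar metabolism 4 of 19 higher and 6 lower.

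Genes of suberin rose together. Of 24 tested genes on the suberin list, 17 were higher in CK2, 1 was lower and 6 did not pass, against 31.3% higher and 13.5% lower over all genes. The median log2 difference was 2.58 against 0.25 over all genes. Of the 17, 13 were DEGs, and over all genes 11.1% were DEGs that rose. The median stayed positive under both scalings (2.02 and 1.91). The 17 genes had CK1 means of 0.02 to 3.55 FPKM, with 15 under 1 FPKM, and CK2 means of 1.27 to 38.6 FPKM. In all 17 the lowest CK2 library exceeded the highest CK1 library, by 2.70-fold to 9.50-fold. The groups did not overlap in 19 of the 24 tested genes, and in 51.9% of all genes. As the 17 were taken for being called higher, their separation is no further evidence. The 15 under 1 FPKM could not have met the minimum for testing through CK1 alone.

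The genes that rose included enzymes of fatty acid hydroxylation, acyl transfer and feruloylation, and exporters. The largest rise of the list was that of MD06G1137500 (chr6:28262441-28266208, genome GDDH13 v1.1), an omega-hydroxypalmitate O-feruloyl transferase, the enzyme that couples ferulic acid to the omega-hydroxy fatty acids. It had 26.6, 38.6 and 10.5 FPKM in CK2, against 0.41, 0.33 and 1.71 FPKM in CK1 (3.76 ± 0.54 on the log2 scale, limma adjusted p = 0.000107). The other feruloyl transferases MD09G1007600 and MD17G1011500 differed by 3.05 and 2.92. CYP86A1, which hydroxylates the end of long-chain fatty acids for suberin in Arabidopsis, was listed at MD11G1079600 (chr11:6823690-6825681) with 33.5, 42.3 and 7.52 FPKM in CK2, against 0.44, 0.51 and 1.61 FPKM in CK1 (3.71 ± 0.59 on the log2 scale, limma adjusted p = 0.000176). At MD03G1073600 (chr3:5991522-5993525) it had 16.4, 37.5 and 5.31 FPKM in CK2, against 0.25, 0.19 and 0.7 FPKM in CK1 (3.57 ± 0.62 on the log2 scale, limma adjusted p = 0.00034). In each of these genes CK2_3 was the lowest and CK2_2 the highest of the CK2 libraries, yet CK2_3 stayed above all CK1 libraries. MD03G1073600 lies within a longer gene model on the same strand, MD03G1073200, so reads may have been split between them.

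CYP86B1, the hydroxylase of still longer chains, rose by 2.40 at MD16G1003000 and 2.01 at MD13G1004700. GPAT5, which attaches the fatty acids to glycerol, had 10.6, 17.1 and 3.42 FPKM in CK2, against 0.11, 0.23 and 0.36 FPKM in CK1 at MD07G1201800 (2.99 ± 0.47 on the log2 scale, limma adjusted p = 0.000166), and differed by 2.58 at MD01G1136800. ABCG transporters export suberin monomers in Arabidopsis. The ABCG6-like gene MD01G1117400 (chr1:23124793-23127048) had 39, 47.1 and 9.35 FPKM in CK2, against 0.5, 1.22 and 1.79 FPKM in CK1 (3.69 ± 0.52 on the log2 scale, limma adjusted p = 0.000103), and the ABCG20-like genes MD04G1116300 and MD12G1132000 rose by 3.36 and 3.32. CASP-like proteins are relatives of the membrane proteins that mark the Casparian strip of roots. The 1D1 member MD13G1173500 had 33.9, 68.3 and 13.5 FPKM in CK2, against 3.07, 5.01 and 2.57 FPKM in CK1 (2.88 ± 0.53 on the log2 scale, limma adjusted p = 0.000481), and the 1B1 members MD05G1263600 and MD10G1241300 rose by 3.13 and 2.58. The remaining rises were those of the ABCG10-like gene MD11G1260200 (1.32) and of the 3-ketoacyl-CoA synthase 4 gene MD05G1065300 (1.097), a chain-elongating enzyme, and these were the 2 genes that did not pass under either scaling.

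Not every chain elongation or CASP-like gene took part. The 3-ketoacyl-CoA synthase 19-like gene MD07G1187400 was already strongly expressed at DAF30, with 305, 179.5 and 167 FPKM in CK2, against 181, 68.4 and 149 FPKM in CK1, and its difference of 0.76 did not pass (limma adjusted p = 0.0866, though it passed as higher under the common distribution and without CK1_1). It lies within the model of the gene MD07G1187000 on the same strand, which differed by 0.63 and did not pass either. The CASP-like 2B1 gene MD10G1336500 was the member that fell, with 0.72, 0.63 and 0.97 FPKM in CK2, against 1.94, 1.68 and 2.52 FPKM in CK1 (-0.78 ± 0.22 on the log2 scale, limma adjusted p = 0.00771).

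The 17 rising suberin genes shared the same order of libraries. All 17 were highest in CK2_2 and lowest in CK2_3, and 15 of 17 were highest in CK1_3 among the CK1 libraries. Their median was 12.9, 18.2 and 3.42 FPKM in CK2_1, CK2_2 and CK2_3, against 0.14, 0.19 and 0.5 FPKM in CK1_1, CK1_2 and CK1_3. All 17 stayed past the threshold when any of the 6 libraries was left out, and 15 of the 17 did under each of the scalings. In whole skin, more suberising cells and more RNA per suberising cell cannot be told apart.

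**Figure D2:**
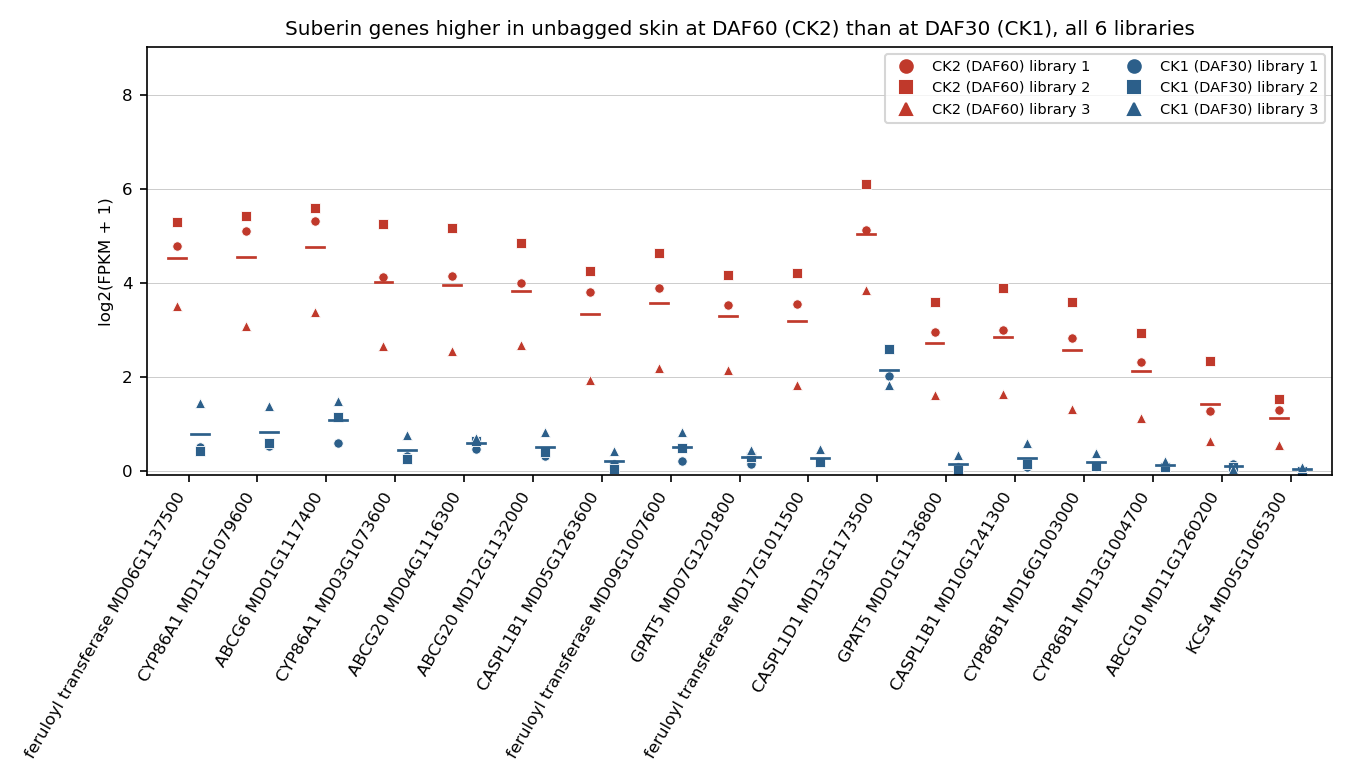
log2(FPKM + 1) of the 17 suberin genes that rose, in the 3 CK2 libraries (red, left of each pair) and the 3 CK1 libraries (blue, right), with the marker shape giving the library number and the horizontal lines the group means. The red points lie above the blue points in all 17 genes, and library 2 (squares) is the highest and library 3 (triangles) the lowest of CK2 throughout.

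Genes of lipid handling at the cell surface changed in both directions. GDSL esterases and lipases include enzymes that join or cut the esters of cutin and suberin. Of 16 tested, 10 were higher in CK2, 5 lower and 1 did not pass (median 1.33), against 31.3% higher and 13.5% lower over all genes. The GDSL gene MD00G1116600, named after At5g37690, had 32.01, 67.2 and 8.36 FPKM in CK2, against 0.43, 0.56 and 1.22 FPKM in CK1 (4.02 ± 0.64 on the log2 scale, limma adjusted p = 0.000174), and MD06G1194000 and MD11G1210200 rose by 3.43 and 3.21. All 3 repeated the order of the suberin genes, highest in CK2_2 and lowest in CK2_3. The LTL1-like gene MD12G1252500, on both the GDSL and the cuticle list, went the other way with 12.8, 21.1 and 44.8 FPKM in CK2, against 49.9, 75.7 and 83.95 FPKM in CK1 (-1.52 ± 0.37 on the log2 scale, limma adjusted p = 0.00325), and its CK2_3 value was the highest of CK2. MD04G1234500 and MD03G1198800 fell by 1.42 and 1.11. Counting only genes that reached 1 FPKM in at least 3 of the 6 libraries, an alternative chosen after seeing the data, left 6 GDSL genes higher.

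Lipid transfer proteins bind fatty acids and lipids at the cell surface. Of 13 tested, 8 were higher, none was lower and 5 did not pass, against 31.3% higher and 13.5% lower over all genes. The median was 1.65, with 6 higher and 1 lower under each scaling. The largest rise among the genes named here was that of the lipid-transfer protein 8-like gene MD00G1187200, on unplaced sequence (chr0:44366025-44366916), with 269, 370.1 and 99.1 FPKM in CK2, against 4.34, 3.4 and 13.8 FPKM in CK1 (4.94 ± 0.62 on the log2 scale, limma adjusted p = 3.87e-05). Its lowest CK2 value was far above its highest CK1 value, but the rule that named it required groups without overlap. Of the genes named after At2g13820, which lie near each other on chromosome 11, MD11G1282300 rose by 3.18, MD11G1282200 by 2.94 and MD11G1281900 by 2.24.

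The cutin and wax genes of the living epidermis did not move as a group. Of 8 tested, 4 were higher, 1 lower and 3 did not pass, against 31.3% higher and 13.5% lower over all genes. The median of 0.35 turned to -0.21 or -0.14 under the scalings, which gave 2 higher and 4 lower each. The ABCG32-like gene MD15G1145300, whose Arabidopsis counterpart exports cutin precursors, had 12.3, 23.1 and 2.85 FPKM in CK2, against 0.19, 0.28 and 0.57 FPKM in CK1 (3.00 ± 0.56 on the log2 scale, limma adjusted p = 0.000521). The GPAT6-like gene MD09G1043100, an acyltransferase of cutin synthesis, had 5.89, 5.2 and 2.44 FPKM in CK2, against 0.09, 0.12 and 0.27 FPKM in CK1 (2.19 ± 0.33 on the log2 scale, limma adjusted p = 0.000121). By contrast, CYP86A8 at MD01G1064900, a cutin omega-hydroxylase in Arabidopsis, had 4.22, 3.6 and 3.91 FPKM in CK2, against 4.8, 7.25 and 9.27 FPKM in CK1, and the WIN1-like gene MD02G1030900, a regulator of cutin and wax genes in Arabidopsis, had 4.03, 3.96 and 3.81 FPKM in CK2, against 10.3, 4.82 and 9.15 FPKM in CK1. Neither passed the test (limma adjusted p = 0.0746 and 0.0521), although the groups did not overlap in either gene, and both passed as lower under both scalings, CYP86A8 also without CK1_1 and WIN1-like without CK1_2. The list's FPKM summed to 60.1 to 79.2 in CK2 and 76.3 to 118 in CK1.

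Enzymes of the phenylpropanoid route, which supplies ferulic acid and monolignols, rose without a fall among those that passed. Of 19 tested, 12 were higher in CK2 and 7 did not pass (median 1.48, and 0.92 and 0.87 under the scalings, with 1 and 0 lower), and 10 of the 12 were DEGs. Of all genes tested, 31.3% were higher, 13.5% lower and 11.1% DEGs that rose. Phenylalanine ammonia-lyase, the entry enzyme, was split. The gene named PAL G4, MD07G1172700, had 12.8, 13.8 and 7.21 FPKM in CK2, against 2.57, 1.5 and 1.29 FPKM in CK1 (2.12 ± 0.39 on the log2 scale, limma adjusted p = 0.000452). The PAL1-like gene MD04G1096200 had 33.9, 7.47 and 12.1 FPKM in CK2, against 37.6, 38.6 and 35.3 FPKM in CK1, where CK1 was tight and CK2_1 stood far above the other CK2 libraries, and it did not pass (limma adjusted p = 0.0883, though it passed as lower under median scaling and without CK2_1). Caffeic acid O-methyltransferase-like genes, which methylate the phenolic ring, made up 7 of the 12. MD07G1300200 had 7.24, 9.83 and 1.8 FPKM in CK2, against 0.08, 0.15 and 0.33 FPKM in CK1 (2.41 ± 0.44 on the log2 scale, limma adjusted p = 0.000452) and MD07G1161100 had 7.39, 2.79 and 4.55 FPKM in CK2, against 0.18, 0.05 and 0.03 FPKM in CK1 (2.37 ± 0.38 on the log2 scale, limma adjusted p = 0.000174). The order of the CK2 libraries differed between them, CK2_2 being the highest for MD07G1300200 and the lowest for MD07G1161100. A hydroxycinnamoyltransferase-like gene, MD17G1157600, rose by 2.28 and reached 1.74 to 7.9 FPKM in CK2, against 0.02 to 0.14 FPKM in CK1. Its far stronger relative MD17G1225100 had 137, 106 and 118 FPKM in CK2, against 69.8, 108 and 128 FPKM in CK1 and did not pass.

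Laccases and peroxidases oxidise monolignols in the wall, and dirigent proteins guide how the resulting radicals join. Of 24 tested genes of these families 14 were higher, 3 lower and 7 did not pass, against 31.3% higher and 13.5% lower over all genes. The median was 1.11, and 0.55 and 0.61 under the scalings. The laccase-3-like gene MD11G1057600 had 24.3, 50.5 and 4.83 FPKM in CK2, against 0.24, 0.29 and 0.74 FPKM in CK1 (3.80 ± 0.64 on the log2 scale, limma adjusted p = 0.000256), with the library order of the suberin genes. The laccase-7-like gene MD04G1142300 had 20.8, 11.4 and 13.6 FPKM in CK2, against 0.81, 0.52 and 1.19 FPKM in CK1 (3.12 ± 0.39 on the log2 scale, limma adjusted p = 3.87e-05), with CK2_1 the highest and CK2_2 the lowest. The peroxidase 11-like gene MD13G1053000 rose by 3.10. The 4 dirigent genes tested, grouped after the values were seen, all rose, MD02G1118100 to 17.1, 17.8 and 15.3 FPKM in CK2, against 1.95, 1.79 and 3.29 FPKM in CK1. The genes that fell were the peroxidase 42-like MD05G1345800 (-1.34), the laccase-15-like MD01G1235100 (-1.14) and the peroxidase 4-like MD03G1059200 (-1.12), the last with overlapping groups and a call that was lost with a replicate block and without CK1_1, CK1_3, CK2_2 or CK2_3.

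Of the genes that the study itself had discussed, and had chosen on these samples, 7 of 11 phenylpropanoid genes were higher and 1 lower, 5 of 9 suberin genes were higher and none lower, and 2 of 5 genes found in both RNA and protein were higher and 1 lower. Over all genes 31.3% were higher and 13.5% lower. The group names are the study's, and some members are on the lists above. In the deposited descriptions its phenylpropanoid genes included GDSL genes (MD02G1161000 and MD06G1194000). Its suberin genes included a chalcone isomerase-like (MD07G1186300), an acyltransferase related to brassinosteroids (MD08G1058900) and a 13S-lipoxygenase gene (MD11G1023100). Among the study's phenylpropanoid genes was the mannitol dehydrogenase-like gene MD01G1042500, with 8.93, 1.69 and 2.2 FPKM in CK2, against 1.55, 0.92 and 1.43 FPKM in CK1, whose call was lost under both scalings and without CK1_1, CK1_2, CK1_3 or CK2_1. The suberin genes of the study included the SRG1-like MD11G1272500, with 7.81, 10.9 and 7.38 FPKM in CK2, against 5.88, 1.39 and 3.81 FPKM in CK1 (1.16 ± 0.37 on the log2 scale, limma adjusted p = 0.0185), which lost its call under both scalings and without CK1_2 or CK2_2. The NADP-dependent sorbitol-6-phosphate dehydrogenase MD10G1062300 was at 0.89, 1.21 and 0.76 FPKM in CK2 and 0.36, 0.31 and 0.46 FPKM in CK1 and did not pass, and had 158, 108 and 45.2 FPKM in CK3.

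Other large rises were of triterpene, phenol-oxidising and defence genes. Beta-amyrin synthases close oxidosqualene into the rings of the triterpenes found in apple skin wax. On a list put together after the values were seen, 5 of 7 genes of triterpene synthesis were higher, all of them DEGs, and none was lower (median 2.48). Of all genes tested, 31.3% were higher and 11.1% DEGs that rose. MD17G1158300 (chr17:15320296-15327073) had 26.6, 45.99 and 14.5 FPKM in CK2, against 0.44, 0.41 and 1.63 FPKM in CK1 (3.96 ± 0.49 on the log2 scale, limma adjusted p = 3.87e-05), and MD17G1159500, further along the same chromosome, had 15.2, 23.2 and 7.32 FPKM in CK2, against 0.25, 0.02 and 0.74 FPKM in CK1 (3.51 ± 0.45 on the log2 scale, limma adjusted p = 4.83e-05). Of the 2 squalene monooxygenase-like genes, which act upstream, MD07G1041500 had 46.2, 12.7 and 33.2 FPKM in CK2, against 103, 52 and 98.6 FPKM in CK1 and did not pass (limma adjusted p = 0.0951, though it passed as lower under median scaling).

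The vinorine synthase-like gene MD13G1109300, a member of the BAHD acyltransferases, had 47.1, 71.5 and 26.1 FPKM in CK2, against 0.54, 0.37 and 2.51 FPKM in CK1 (4.55 ± 0.53 on the log2 scale, limma adjusted p = 3.87e-05). The germin-like gene MD14G1243000, a wall glycoprotein whose model lies within that of MD14G1243100, had 47.05, 121 and 17.3 FPKM in CK2, against 0.88, 0.49 and 2.45 FPKM in CK1 (4.48 ± 0.68 on the log2 scale, limma adjusted p = 0.000128). Polyphenol oxidase, which turns phenols into brown quinones, had 97.5, 64.6 and 61.5 FPKM in CK2, against 7.84, 9.67 and 5.96 FPKM in CK1 at MD10G1299400 (3.09 ± 0.57 on the log2 scale, limma adjusted p = 0.000452). In these 3 genes the groups were well apart, although CK2_2 was by far the highest for the germin-like gene. The vinorine synthase-like and germin-like genes were named by a rule that required groups without overlap, so their separation is no further evidence. Of all 8 polyphenol oxidase and germin-like genes tested, a group put together after the values were seen, 4 were higher, 1 was lower and 3 did not pass. The shares over all genes were 31.3% higher and 13.5% lower. The most strongly expressed polyphenol oxidase, MD05G1320800, had 122, 254 and 206 FPKM in CK2, against 121, 159 and 204 FPKM in CK1 and did not pass (limma adjusted p = 0.781). The germin-like gene MD12G1197400 fell, with 9.13, 11.4 and 13.5 FPKM in CK2, against 14.8, 23.2 and 18.1 FPKM in CK1 (-0.67 ± 0.24 on the log2 scale, limma adjusted p = 0.0324), a call lost under the common distribution, with a replicate block and without CK1_2, CK1_3, CK2_1 or CK2_2.

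Some rises were carried mainly by CK2_1. The P21-like gene MD04G1064200, of the thaumatin-like defence proteins, had 59.5, 6.05 and 5.94 FPKM in CK2, against 0.45, 0.14 and 0.41 FPKM in CK1 (3.44 ± 0.61 on the log2 scale, limma adjusted p = 0.000398). The sugar transporter gene SWEET1-like, MD10G1013100, had 38.5, 9.98 and 4.65 FPKM in CK2, against 0.29, 0.07 and 0.4 FPKM in CK1 (3.44 ± 0.53 on the log2 scale, limma adjusted p = 0.000147), and its model overlaps those of MD10G1012400 and MD10G1012600. The endo-1,3-beta-glucosidase gene MD14G1079900 had 77.96, 9.41 and 6.48 FPKM in CK2, against 2.56, 1.74 and 2.46 FPKM in CK1 (2.50 ± 0.72 on the log2 scale, limma adjusted p = 0.00947) and lost its call without CK2_1. Pathogenesis-related protein 4 at MD04G1225400 had 47.8, 8.68 and 27.1 FPKM in CK2, against 3.75, 0.94 and 2.5 FPKM in CK1, with CK2_2 the lowest of CK2 (2.89 ± 0.54 on the log2 scale, limma adjusted p = 0.000527). Over all 155 rising DEGs, CK2_1 was the highest CK2 library in 78, CK2_2 in 66 and CK2_3 in 11, and CK2_3 was the lowest in 107.

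Genes of jasmonate synthesis, signalling and turnover fell. Jasmonate is the lipid-derived hormone of wounding, made by 13S-lipoxygenases and allene oxide cyclase. It is held in check by JAZ proteins (TIFY family) that repress MYC2, and broken down by CYP94 enzymes. On a list put together after the values were seen, 14 of 20 tested genes were lower in CK2, 3 were higher and 3 did not pass. The shares over all genes were 13.5% lower and 31.3% higher. The median of the list was -1.61, and all 14 stayed lower under both scalings. Among the 14 was MD04G1204500 (-1.61), which is described as a 9S-lipoxygenase and not as a 13S-lipoxygenase. The CYP94C1-like gene MD11G1171100 (chr11:18610980-18612581) had 3.13, 1.41 and 1.72 FPKM in CK2, against 71.2, 26.6 and 13.1 FPKM in CK1 (-3.34 ± 0.60 on the log2 scale, limma adjusted p = 0.000402), and MD03G1140700 had 1.13, 1.35 and 2.6 FPKM in CK2, against 66.4, 15.5 and 10.4 FPKM in CK1 (-3.15 ± 0.48 on the log2 scale, limma adjusted p = 0.000134). The JAZ gene TIFY 5A, MD10G1260700 (chr10:35436330-35437308), had 0.74, 0.67 and 1.45 FPKM in CK2, against 27.5, 8.6 and 8.09 FPKM in CK1 (-2.82 ± 0.37 on the log2 scale, limma adjusted p = 4.91e-05). All 14 genes were highest in CK1_1, and the groups overlapped in 4 of them.

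Without CK1_1 the test called 8 of the 14 as lower. The count was 12 without CK1_2, 14 without CK1_3, 12 without CK2_1, 9 without CK2_2 and 13 without CK2_3. The MYC2-like gene MD14G1137200 had 2.37, 2.4 and 2.96 FPKM in CK2, against 13.6, 8.97 and 7.71 FPKM in CK1 (-1.60 ± 0.30 on the log2 scale, limma adjusted p = 0.000497), and the strongly expressed TIFY 9-like gene MD16G1127400 had 132, 63.4 and 111 FPKM in CK2, against 463, 262 and 254 FPKM in CK1 (-1.67 ± 0.46 on the log2 scale, limma adjusted p = 0.00774). The allene oxide cyclase 4-like gene MD09G1084600 had 20.5, 4.19 and 7.96 FPKM in CK2, against 92.1, 24.9 and 17.9 FPKM in CK1, where CK2_1 reached into the CK1 range (-1.84 ± 0.69 on the log2 scale, limma adjusted p = 0.0388), and its call was lost without CK1_1, CK1_2, CK2_2 or CK2_3. Of the 3 genes that rose, the 13S-lipoxygenase 2-1-like MD07G1003900 had 11.8, 4.9 and 4.86 FPKM in CK2, against 0.37, 0.43 and 0.87 FPKM in CK1 (2.30 ± 0.37 on the log2 scale, limma adjusted p = 0.000203) and MD07G1004500 had 449.8, 580.5 and 648 FPKM in CK2, against 223, 149 and 196 FPKM in CK1 (1.56 ± 0.40 on the log2 scale, limma adjusted p = 0.00443), the second call being lost under median scaling. Their models overlap on the same strand, so the reads of each may include those of the other.

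**Figure D3:**
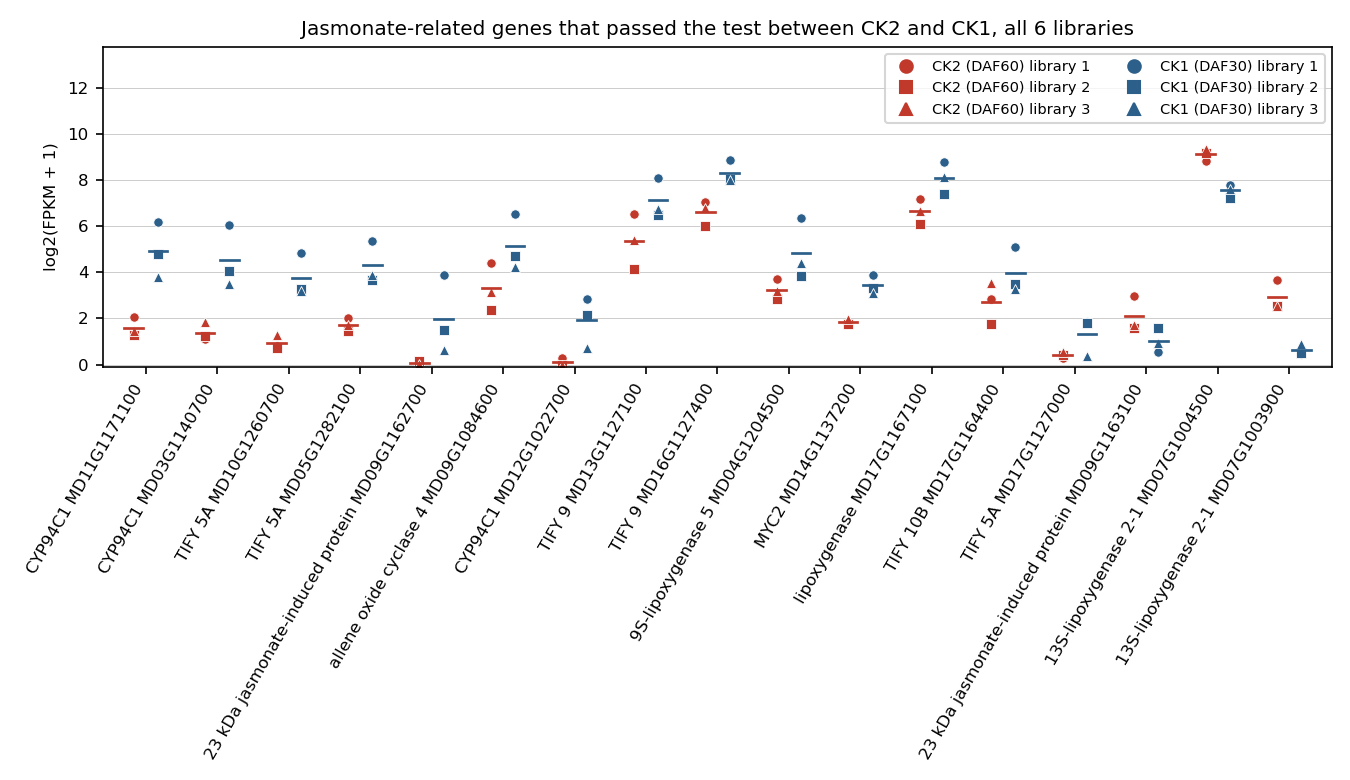
log2(FPKM + 1) of the 17 jasmonate-related genes that passed the test, in the 3 CK2 libraries (red, left of each pair) and the 3 CK1 libraries (blue, right), with the marker shape giving the library number and the horizontal lines the group means. The 14 genes on the left were lower in CK2 and have their highest value in CK1_1 (blue circles), and the 3 on the right were higher in CK2.

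The largest fall was that of proline-rich protein 4 at MD05G1116400 (chr5:23731857-23734264), a structural wall protein, with 2.66, 11.4 and 8.89 FPKM in CK2, against 43.8, 240.0 and 69.6 FPKM in CK1 (-3.58 ± 0.61 on the log2 scale, limma adjusted p = 0.000278). A nerolidol synthase-like gene, MD10G1310500, of sesquiterpene synthesis, had 2.37, 0.52 and 1.44 FPKM in CK2, against 63.8, 11.8 and 10.5 FPKM in CK1 (-3.19 ± 0.54 on the log2 scale, limma adjusted p = 0.000283), and the tryptophan synthase alpha chain-like gene MD17G1246800 had 7.65, 5.92 and 9.71 FPKM in CK2, against 107, 46.4 and 31.99 FPKM in CK1 (-2.68 ± 0.39 on the log2 scale, limma adjusted p = 0.000112). Both were highest in CK1_1, like the jasmonate genes. RBOHD-like, MD13G1134500, an NADPH oxidase that makes superoxide at the cell surface, had 15.3, 7.7 and 12.97 FPKM in CK2, against 107, 83.9 and 60.2 FPKM in CK1 (-2.71 ± 0.50 on the log2 scale, limma adjusted p = 0.000464). The UPF0481 gene MD17G1218300, which overlaps MD17G1218200 on the same strand, differed by -2.37. Over the 45 falling DEGs, CK1_1 was the highest CK1 library in 27, CK1_2 in 14 and CK1_3 in 4.

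Extensins are hydroxyproline-rich wall proteins. Of 6 genes annotated as extensins or extensin-like, a count made after the values were seen, 4 were lower and 2 did not pass. The shares over all genes were 31.3% higher and 13.5% lower. Of the 4, 3 are overlapping models at the same place, where CK1_2 stood apart. The extensin-2-like gene MD04G1031300 had 2.44, 3.65 and 4.48 FPKM in CK2, against 13.8, 119 and 12.7 FPKM in CK1 (-2.70 ± 0.64 on the log2 scale, limma adjusted p = 0.00281). The overlapping models MD04G1031400 and MD04G1031500 are listed at the same coordinates and showed the same CK1_2 excess, and the call of MD04G1031400 was lost without CK1_2. The xylem genes of the secondary wall list were highest in the same library, CESA7-like MD15G1150300 for instance at 0.17, 0.27 and 0.19 FPKM in CK2 and 0.98, 2.37 and 0.54 FPKM in CK1. Their part in the extensin values was not tested. The pollen-specific leucine-rich repeat extensin-like gene MD09G1187300 fell too, with 5.4, 4.1 and 4.78 FPKM in CK2, against 30.5, 49.2 and 18.5 FPKM in CK1 (-2.45 ± 0.35 on the log2 scale, limma adjusted p = 0.000103), CK1_2 again being the highest. Of the 9 secondary wall genes, 1 was higher, 1 lower and 7 did not pass (1 and 4 under median scaling, 1 and 0 under a common distribution), and the list summed to 124 to 273 FPKM in CK2 and 297 to 421 FPKM in CK1, most of it from the COBRA-like 7 gene MD13G1159600, with 269, 114 and 169.5 FPKM in CK2, against 293, 409 and 418 FPKM in CK1, whose call was lost under the common distribution, with a replicate block and without CK1_2, CK1_3, CK2_2 or CK2_3.

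Flavonoid enzymes did not move as a group, with 2 of 12 higher, 2 lower and 8 not passed, against 31.3% higher and 13.5% lower over all genes. The median of 0.21 turned to -0.35 under median scaling. Chalcone synthase, the entry enzyme, had 11.7, 3.68 and 4.1 FPKM in CK2, against 52.9, 31.9 and 28.2 FPKM in CK1 at MD04G1003300 (-2.47 ± 0.44 on the log2 scale, limma adjusted p = 0.000415). The neighbouring MD04G1003400 had 15.3, 6.37 and 8.83 FPKM in CK2, against 25.4, 25.7 and 21.3 FPKM in CK1 and lost its call without CK1_1, CK1_2, CK2_2 or CK2_3, and another model, MD04G1003000, spans both. The flavonoid glucosyltransferase-like gene MD09G1141200 rose instead, with 39.6, 12.6 and 15.9 FPKM in CK2, against 4.27, 2.61 and 6.84 FPKM in CK1 (1.99 ± 0.47 on the log2 scale, limma adjusted p = 0.00278).

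Most photosynthesis genes did not pass between the stages, and neither did 55.2% of all genes. Of 17 genes of the light reactions and chlorophyll, 4 were higher and 13 did not pass, against 31.3% higher and 13.5% lower over all genes. Their median was 0.32, and -0.24 and 0.03 under the scalings, which called 1 and 6 of them higher. The chlorophyll a/b-binding protein gene MD09G1122500 had 360.0, 242 and 135 FPKM in CK2, against 92.2, 106 and 83.6 FPKM in CK1 (1.27 ± 0.32 on the log2 scale, limma adjusted p = 0.00416), a call lost under median scaling. Of 17 genes of carbon fixation and photorespiration, 2 were higher, 1 lower and 14 did not pass (median -0.02, and -0.58 and -0.11 under the scalings, with 1 higher and 6 lower or 2 and 2). The small chain of RuBisCO at MD17G1244400 averaged 2292 ± 924 FPKM in CK2 and 2094 ± 312 FPKM in CK1 (SD, n = 3 each), a difference of 0.04 ± 0.45 on the log2 scale that did not pass.

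Sugar, sorbitol and starch genes were more often lower than higher, with 4 of 19 higher, 6 lower and 9 not passed. The shares over all genes were 31.3% higher and 13.5% lower. The median was -0.57, with 1 higher and 9 or 7 lower under the scalings. Alkaline/neutral invertase A, which splits sucrose, had 35.8, 13.1 and 18.3 FPKM in CK2, against 77.7, 49.8 and 51.9 FPKM in CK1 at MD13G1148300 (-1.47 ± 0.36 on the log2 scale, limma adjusted p = 0.00368). Sorbitol is the main transport sugar of apple, and the sorbitol dehydrogenase-like gene MD01G1195300 had 102, 42.3 and 70.8 FPKM in CK2, against 151, 151 and 232 FPKM in CK1 (-1.36 ± 0.44 on the log2 scale, limma adjusted p = 0.0185). That call was lost under the common distribution and without CK1_3 or CK2_2, and the model overlaps MD01G1195400 and MD01G1195000. Of the 6 falls, 3 were of galactinol-sucrose galactosyltransferase 6 genes on chromosome 2, of which MD02G1026300 and MD02G1026200 are overlapping models.

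Among 101 transcription factor genes 35 were higher, 19 lower and 47 did not pass, against 31.3% higher and 13.5% lower over all genes. Their median of 0.18 turned to -0.38 or -0.13 under the scalings (21 higher and 38 lower, or 20 and 25). The dof protein gene DOF3.7-like, MD02G1163500, had 32.4, 30.9 and 21.9 FPKM in CK2, against 3.82, 2.63 and 4.28 FPKM in CK1 (2.68 ± 0.29 on the log2 scale, limma adjusted p = 3.38e-05), all CK2 libraries lying at a like level. The NAC100-like genes MD08G1121300 and MD15G1100100 had 7.74, 12.7 and 3.49 FPKM and 4.69, 8.18 and 2.34 FPKM in CK2, against 0.1, 0.1 and 0.49 FPKM and 0.13, 0.06 and 0.26 FPKM in CK1, and differed by 2.74 and 2.28. Myb4-like genes fell, MD09G1098600 with 10.3, 4.41 and 10.7 FPKM in CK2, against 81.3, 27.5 and 43.1 FPKM in CK1 (-2.39 ± 0.40 on the log2 scale, limma adjusted p = 0.000278) and MD05G1197600 by 2.29. The Myb-like activator MD08G1107400 had 22.4, 21.7 and 42.99 FPKM in CK2, against 131, 107 and 128 FPKM in CK1 (-2.10 ± 0.35 on the log2 scale, limma adjusted p = 0.000255), and the bHLH66-like gene MD02G1009200 had 45.5, 20.4 and 37.2 FPKM in CK2, against 162, 202 and 159.7 FPKM in CK1 (-2.37 ± 0.49 on the log2 scale, limma adjusted p = 0.00108).

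MYB39 activates suberin genes in Arabidopsis. The MYB39-like genes MD15G1323500 and MD01G1031700, looked up after their values were seen, rose by 1.56 and 1.41 from CK1 values of at most 0.12 FPKM. MD15G1323500 had 1.98, 5.08 and 0.55 FPKM in CK2 and MD01G1031700 2.29, 4.37 and 0.33 FPKM, again highest in CK2_2 and lowest in CK2_3.

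Receptor and serine/threonine kinases were higher in 36 of 89, lower in 8 and not passed in 45 (median 0.59), against 31.3% higher and 13.5% lower over all genes. Under the scalings, however, the calls were 15 higher and 18 lower or 14 and 15. The receptor-like protein 12 gene MD07G1107800 had 79.9, 42.8 and 27.7 FPKM in CK2, against 5.29, 5.22 and 8.73 FPKM in CK1 (2.69 ± 0.41 on the log2 scale, limma adjusted p = 0.000128). The lectin receptor kinase S.4-like genes fell, MD12G1147700 with 2.33, 1.46 and 2.36 FPKM in CK2, against 15.4, 22.1 and 10.3 FPKM in CK1 (-2.43 ± 0.30 on the log2 scale, limma adjusted p = 3.87e-05) and MD04G1133700 by 2.23. Defence and immune genes were higher in 20 of 50, lower in 3 and not passed in 27 (median 0.71), with 11 higher and 9 or 3 lower under the scalings. The MLP-like 423 gene MD16G1088600 fell, with 91.9, 80.3 and 64.7 FPKM in CK2, against 195, 192 and 184 FPKM in CK1 (-1.27 ± 0.41 on the log2 scale, limma adjusted p = 0.0175), a call lost without CK2_3.

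Cytochromes P450 were higher in 18 of 33, lower in 3 and not passed in 12 (median 0.92, and 0.36 and 0.32 under the scalings), the 3 falls all being CYP94C1-like genes. Membrane transporters were higher in 23 of 61, lower in 5 and not passed in 33 (median 0.30, but -0.26 and 0.02 under the scalings). Over all genes 31.3% were higher and 13.5% lower, so the transporter counts were not far from those of the table as a whole. Both lists share genes with those above. CYP86A1 MD03G1073600 is on the P450 list, and ABCG6-like MD01G1117400 and ABCG20-like MD04G1116300 are on the transporter list. These rises are therefore not separate from the suberin genes. The plasma membrane calcium ATPase gene MD15G1296400 fell, with 31.1, 10.4 and 13.9 FPKM in CK2, against 82.1, 54.3 and 56.7 FPKM in CK1 (-1.87 ± 0.39 on the log2 scale, limma adjusted p = 0.00113). Primary wall and pectin genes were higher in 12 of 34, lower in 8 and not passed in 14, against the same shares over all genes (median 0.64, with 8 higher and 11 lower under median scaling). Pectate lyase, which cuts pectin, had 12.3, 38.7 and 6.46 FPKM in CK2, against 0.28, 0.38 and 1.43 FPKM in CK1 at MD09G1019900 (3.28 ± 0.57 on the log2 scale, limma adjusted p = 0.000358).

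Hormone genes outside the jasmonate group included rises of the ACC oxidase homologs MD14G1028700 (2.06) and MD12G1028500 (2.01), and the hormone list as a whole had 10 of 65 higher, 15 lower and 40 not passed (median -0.49), against 4 higher and 33 lower under median scaling and 5 and 20 under a common distribution. The shares over all genes were 31.3% higher and 13.5% lower. Clock and light-signalling genes were higher in 3 of 5 and lower in none, the CONSTANS-LIKE 2-like gene MD17G1087800 with 20.9, 10.8 and 13.1 FPKM in CK2, against 4.83, 4.28 and 4.7 FPKM in CK1 (1.46 ± 0.30 on the log2 scale, limma adjusted p = 0.001). Heat shock genes had 2 of 15 higher, 1 lower and 12 not passed (median -0.38), against 1 higher and 4 or 1 lower under the scalings. Of 3 cell division genes 1 rose, cyclin-U1-1 at MD09G1104900, with 2.8, 1.94 and 1.44 FPKM in CK2, against 0.51, 0.58 and 0.7 FPKM in CK1, a call lost under both scalings, which gave 2 or 1 members lower. Of the 3 pollen and seed genes tested, the fall of the pollen-specific extensin-like gene given above was the only call (2 were lower under median scaling), and the list for cytosolic ribosomal and translation genes held 1 tested gene, an actin-depolymerizing factor (MD05G1197900, 0.50), which did not pass.

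Whether the change differed from that in bagged skin was tested as the difference between CK2 - CK1 and T2 - T1. It was more positive in unbagged skin in 520 of 1399 genes (37.2%) and more negative in 86 (6.15%), 606 in all (43.3%, adjusted p no higher than 0.05), with a median of 0.68, but median scaling gave 105 and 303 and a common distribution 159 and 180. Bagged skin by itself had 82 genes higher in T2 than in T1 (5.86%) and 296 lower (21.2%), with a median of -0.27. Of the 155 DEGs that rose in unbagged skin 143 rose more than in bagged skin and 12 did not differ at this threshold, and of the 45 that fell 17 fell more, 1 fell less and 27 did not differ at this threshold. As 154 of the 155 rising DEGs had entered the table for being lower in T, the first of these counts is not independent of how the table was chosen. The DEGs were also chosen by CK2 - CK1, which is part of the difference tested.

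Of the 24 tested genes of the suberin list, 22 had entered the table for being lower in T. In this list 17 of 24 genes changed more positively in unbagged skin, among them 15 of the 17 that rose. Their median was 1.45, 1.27 and 1 FPKM in the T2 libraries, against 0.36, 0.25 and 1.35 FPKM in T1, and 1 of the 17, ABCG6-like MD01G1117400, rose in T2 by the test. The lipid-transfer protein 8-like gene MD00G1187200 was an exception among the largest rises, as it also rose in bagged skin, with 144, 63.1 and 90.8 FPKM in T2 against 4.55, 4.59 and 19.2 FPKM in T1, and the 1.47 between the changes did not pass (limma adjusted p = 0.19).

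In 15 of 17 photosynthesis genes the change was more positive in unbagged skin than in bagged skin, against 37.2% of all genes tested. All 17 had entered the table for being lower in T, so this count is not independent of how the table was chosen. It was not taken under the scalings. In unbagged skin 4 rose and none fell, while in bagged skin 9 of 17 fell and none rose. Their FPKM summed to 531 to 1147 in CK2 and 467 to 613 in CK1, against 167 to 200.0 in T2 and 341 to 644 in T1. RuBisCO small chain at MD17G1244400 averaged 221 ± 22.4 FPKM in T2 and 2043 ± 1086 FPKM in T1 (SD, n = 3 each). Of the 20 jasmonate genes 8 were lower and 1 was higher in T2 than in T1, and 2 changed more negatively and 3 more positively in unbagged skin. TIFY 5A at MD10G1260700 had 0.19, 0.19 and 0.88 FPKM in T2 and 5.63, 3.64 and 2.46 FPKM in T1.

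**Figure D4:**
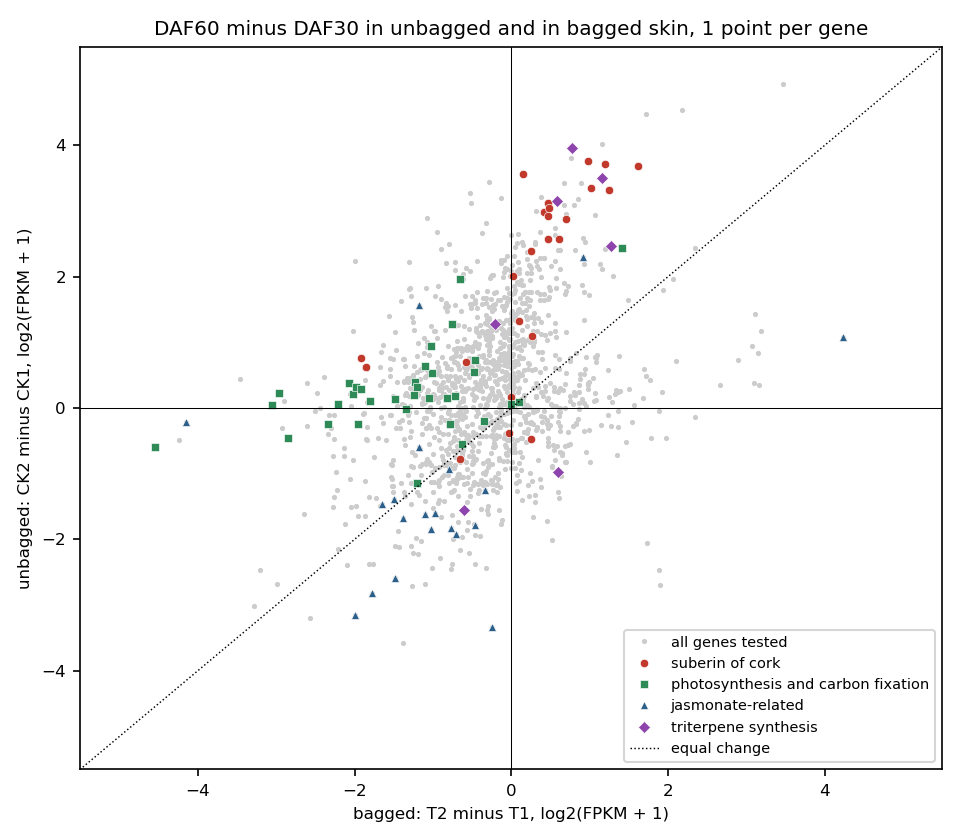
Difference between DAF60 and DAF30 in unbagged skin (CK2 minus CK1, vertical axis) against that in bagged skin (T2 minus T1, horizontal axis), both on log2(FPKM + 1), with 1 point per gene for the 1399 genes tested and 4 gene groups in colour. The dotted line marks equal change. The 17 rising suberin genes lie above the line, as do the 5 rising triterpene genes, while most photosynthesis and carbon fixation genes lie left of 0.

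Most of the genes that had risen by DAF60 did not pass between DAF60 and DAF150. Those that passed were mostly lower at DAF150, but the share that was lower was smaller than over all genes. The comparison of CK3 with CK2 shares the CK2 libraries with the one above, so its values are given side by side only. Over all genes 248 were higher in CK3 than in CK2 (17.7%) and 556 lower (39.7%), with a median of -0.52. Of the 155 rising DEGs 9 were higher in CK3, 52 lower and 94 did not pass (median -0.68), and of the 45 falling DEGs 1 was higher and 26 lower (median -0.90). None of the 17 rising suberin genes passed between CK3 and CK2, where their differences were -1.102 to -0.04, and their median was 4.47, 13.97 and 1.77 FPKM in CK3_1, CK3_2 and CK3_3.

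The lipid-transfer protein 8-like gene MD00G1187200 had 239, 337 and 90.6 FPKM in CK3, close to CK2, whereas pectate lyase MD09G1019900 had 0.45, 5.24 and 0.67 FPKM in CK3 and SWEET1-like MD10G1013100 2.45, 2.39 and 1.66 FPKM, both lower than in CK2 by the test. Among falling genes, the Myb-like activator MD08G1107400 had 0, 0.77 and 1.64 FPKM in CK3, and TIFY 5A MD10G1260700 had 0, 0.04 and 0.11 FPKM. Chalcone synthase MD04G1003300 had 18.5, 29.8 and 8.98 FPKM in CK3, a difference of 1.44 from CK2 (limma adjusted p = 0.0111).

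**Figure D5:**
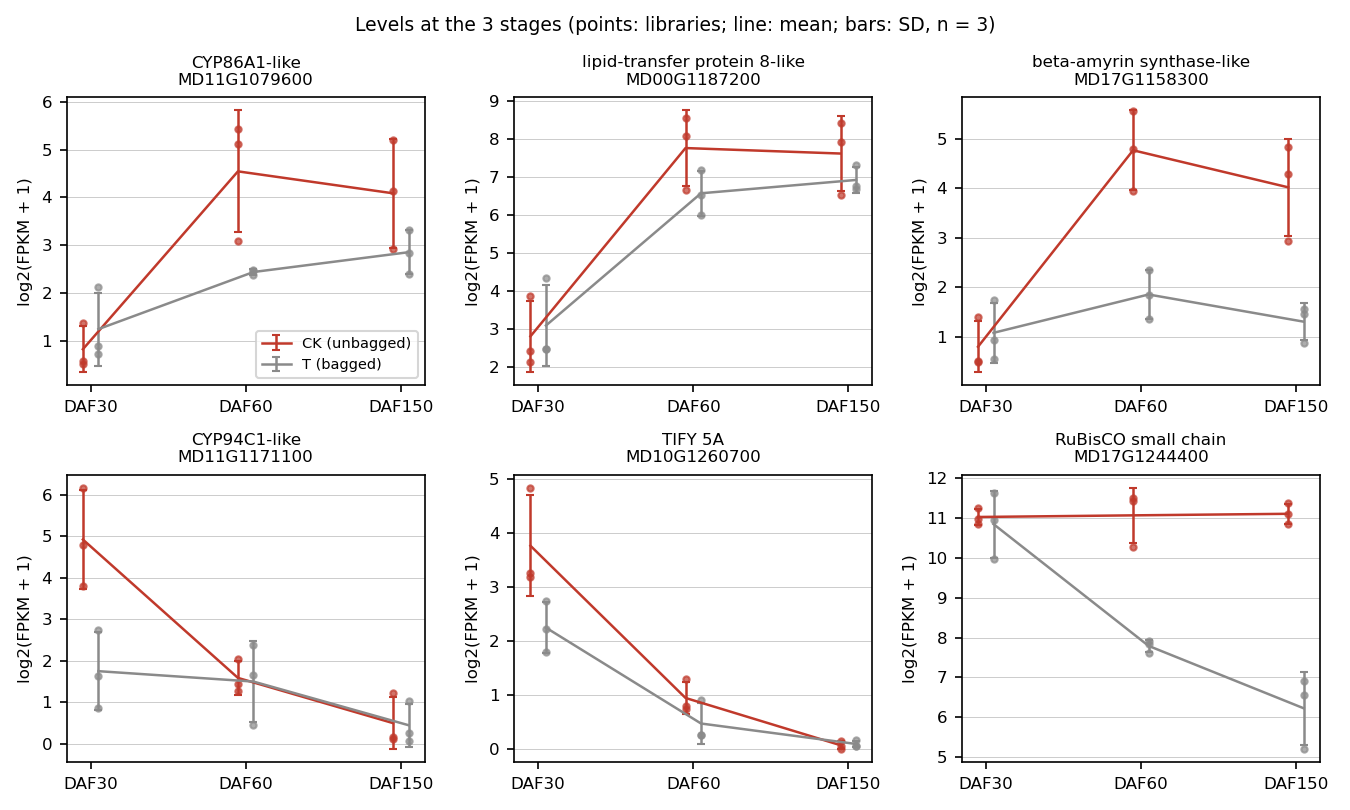
log2(FPKM + 1) of 6 genes at DAF30, DAF60 and DAF150 in unbagged (CK, red) and bagged (T, grey) skin, with points for libraries, lines through the means and bars for the SD (n = 3). CYP86A1-like, lipid-transfer protein 8-like and beta-amyrin synthase-like are higher in CK at DAF60 than at DAF30 and did not pass between DAF60 and DAF150. CYP94C1-like and TIFY 5A have a lower mean at each later stage in CK, though CYP94C1-like did not pass between DAF60 and DAF150. RuBisCO small chain averages 2292 FPKM in CK2 and 2094 FPKM in CK1, against 221 FPKM in T2 and 2043 FPKM in T1.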

How the data were processed

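RNA of apple skin was sequenced on the BGISEQ-500 platform, and per the study's methods the authors filtered the reads and used Bowtie2 to align them against genome and gene set GDDH13 v1.1. Neither its version nor the counting tool is given in the sources used here. From these reads the authors deposited a single table with an FPKM value per gene and library, rounded to 2 decimals, a log2 ratio of T to CK and its q-value. The ratio and the q-value deposited by the authors were read only to learn how the table was made: all 2856 genes have a ratio of at least 2-fold and a q-value of at most 0.001. The design had assumed a table of all genes. The FPKM values did not fall on visible whole-read steps, so the depth of each library is unknown and no count test was run.

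FPKM was taken as log2(FPKM + 1), and genes with at least 1 FPKM in at least 3 of the 18 libraries were fitted with limma 3.58.1 (trend and robust, statmod 1.5.0, R 4.3.3) over the 6 groups, after the procedure had been tested on simulated data. The contrasts were CK2 - CK1, T2 - T1, their difference and CK3 - CK2, each with Benjamini-Hochberg adjustment over 1399 genes. Python 3.11.15 with pandas 2.3.3 was used for counts. On the log2(FPKM + 1) scale the change of low genes is understated. Alternatives were a pseudocount of 0.1, no filter, a filter within the 6 libraries, scaling to a common median or to a common distribution (quantile normalization), a replicate block, a fit to 6 libraries, no trend, and leaving out each library.

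Members and gene lists were chosen with earlier results of these data known. Lists were keyword matches in the deposited gene descriptions, and a gene can be on several lists. Genes were named by a rule: the 15 largest rises and 15 largest falls among DEGs with at least 5 FPKM in the higher group, groups that do not overlap and a known function, the 3 largest rises and falls among the called genes of each list, the genes the study discussed, and the 6 largest differences from bagged skin in each direction with at least 5 FPKM in the highest group. The jasmonate and triterpene groups and 26 other genes given with values (among them further members of the suberin and jasmonate groups, CYP86A8, WIN1-like, PAL G4, the MYB39-like genes and RuBisCO small chain) were chosen after their values were seen. So were the groups of caffeic acid O-methyltransferases, of polyphenol oxidases and germin-like proteins, and of dirigent proteins. Genes whose models overlap may share reads.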

Additional observations from a re-analysis of the deposited data

Results flagged for a closer look

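The change between DAF60 and DAF30 differed between unbagged and bagged skin in 606 of 1399 genes (43.3%) by the test of the difference (limma, 520 more positive and 86 more negative in unbagged skin). Among them were 14 of the 15 genes named for the largest rises and 5 of the 15 named for the largest falls. Both sets were named for the size of CK2 - CK1, which is part of this difference, so these counts are not independent of that choice. Another 12 genes, 1 of them also among those falls, were named for the size of this difference, so that their calls follow from how they were chosen. Each value here is the log2 difference between the change in unbagged skin and that in bagged skin.

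Among wall and surface genes the difference was 2.86 for the GDSL gene MD00G1116600, 2.54 for MD06G1194000, 2.07 for ABCG6-like MD01G1117400, 2.33 for ABCG20-like MD04G1116300, 3.41 and 2.52 for the CYP86A1 genes MD03G1073600 and MD11G1079600, 2.77 for the feruloyl transferase MD06G1137500 and 3.05 for laccase-3-like MD11G1057600. These genes averaged 18.8 to 35.8 FPKM in CK2 and at most 1.17 FPKM in CK1, against 1.13 to 6.37 FPKM in T2 and 0.69 to 2.08 FPKM in T1. Beta-amyrin synthase-like MD17G1158300 and MD17G1159500 differed by 3.19 and 2.34, vinorine synthase-like MD13G1109300 by 2.36, germin-like MD14G1243000 by 2.76, pectate lyase-like MD09G1019900 by 3.81, SWEET1-like MD10G1013100 by 2.77, P21-like MD04G1064200 by 3.72 and pathogenesis-related protein 4 MD04G1225400 by 3.98.

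Other positive differences came mostly from a fall in bagged skin. They were 3.96 for RuBisCO small chain MD09G1252100, 3.94 for 13S-lipoxygenase 2-1-like MD11G1023100, 3.76 for Rab21-like MD02G1140000 and 4.23 for CYP71A1-like MD17G1167200. MD11G1023100 averaged 26.6 FPKM in CK2 and 31.1 FPKM in CK1, against 0.73 FPKM in T2 and 32.03 FPKM in T1, whereas MD17G1167200 rose by 2.24 in unbagged skin.

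The negative differences included 3 overlapping extensin-2-like models, MD04G1031300 (-4.61), MD04G1031500 (-4.37) and MD04G1031400 (-3.78). MD04G1031300 averaged 3.52 FPKM in CK2 and 48.3 FPKM in CK1, against 70.2 FPKM in T2 and 19.5 FPKM in T1. The 23 kDa jasmonate-induced protein-like gene MD09G1163100 (-3.15) averaged 3.76 FPKM in CK2 and 1.12 FPKM in CK1, against 35.9 FPKM in T2 and 0.993 FPKM in T1. The others were CYP94C1-like MD11G1171100 (-3.09), zinc transporter 8-like MD09G1140300 (-2.71), proline-rich protein 4 MD05G1116400 (-2.20), the lectin receptor kinase S.4-like MD12G1147700 (-2.10), the pollen-specific extensin-like MD09G1187300 (-1.69) and Myb4-like MD05G1197600 (-1.37).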

How the results depend on the processing

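Scaling to a common median gave 66 DEGs higher and 148 lower, 237 genes changed higher and 418 lower, a difference from bagged skin in 105 genes upward and 303 downward, and a median of -0.31. A common distribution gave 54 and 72 (126 DEGs), 269 genes changed higher, 159 and 180 genes that differed from bagged skin (339) and a median of -0.0235. Without a filter 787 genes changed higher and 1051 in all, over 2856 genes. The fit to only 6 libraries, with fewer residual degrees of freedom, gave 0 DEGs higher, 0 lower and 0 in all (limma, 657 genes at an unadjusted p under 0.05) and 123 genes changed lower. Leaving out a library gave 41 to 186 DEGs higher, 16 to 42 lower and 58 to 215 in all. A filter within the 6 libraries left 6 GDSL genes higher. The cause of these moves was otherwise not tested.

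Of 124 genes named by the rule, none of the 112 called changed direction. The rule names many genes for a large CK2 - CK1 or for their call, so this steadiness follows in part from the choice. The number that lost its call was 14 under median scaling, 13 under a common distribution, 19 in the fit to 6 libraries, 7 to 14 without a library, 4 with a pseudocount of 0.1, 3 without a filter, 1 without trend and 0 of the 118 that the filter within 6 libraries kept. Of 52 list counts, 29 moved by over 1.5 times under median scaling, 19 under a common distribution and 3 to 9 without a library.

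The study's methods name 3 trees as replicates of a group, but no source ties a library's number to a tree, so the libraries were not treated as paired. Deviations of same-numbered CK2 and CK1 libraries correlated at 0.174, 0.317 and -0.185, and 2 of 3 CK2 libraries correlated best with their own number. A replicate block gave 177 DEGs higher and 38 lower, 437 genes changed higher and 183 lower, and 538 and 83 that differed from bagged skin, and 4 named genes lost their call. Depth per library is unknown, so no limit can be set for genes listed at 0.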

Other observations

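Genes with the same description on paired chromosomes had like values, a description of genes picked after their values were seen. The CYP86A1 genes on chromosomes 11 and 3 (MD11G1079600 and MD03G1073600) differed by 3.71 and 3.57 between CK2 and CK1, the GPAT5 genes on chromosomes 7 and 1 (MD07G1201800 and MD01G1136800) by 2.99 and 2.58, the ABCG20-like genes on chromosomes 4 and 12 (MD04G1116300 and MD12G1132000) by 3.36 and 3.32, and the NAC100-like genes on chromosomes 8 and 15 (MD08G1121300 and MD15G1100100) by 2.74 and 2.28. Reads of near-identical copies may have been split between them, and the counting rule is not given in the sources used here.

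Further regulators that rose, also picked after their values were seen, were the RAX2-like gene MD11G1146200 (1.75) and the RAX3-like gene MD15G1063300 (1.60), both of the MYB family, the WRKY24 genes MD01G1071600 (1.77), MD07G1131000 (1.77) and MD01G1123900 (1.41), the WRKY74 gene MD04G1226400 (1.80) and the SVP-like gene MD15G1384600 (1.84), a MADS-box gene. RAX2-like MD11G1146200 had 6.54, 8.42 and 3.56 FPKM in CK2, against 1.34, 0.85 and 0.98 FPKM in CK1, and SVP-like MD15G1384600 had 8.25, 3.56 and 2.73 FPKM in CK2, against 0.73, 0.5 and 0.32 FPKM in CK1. The groups did not overlap in either gene. The basic 7S globulin-like gene MD11G1287900 had 15.1, 9.95 and 29.1 FPKM in CK2, against 3.27, 1.66 and 5.98 FPKM in CK1 and expansin-A6 MD03G1090700, a wall-loosening protein, had 5.83, 8.49 and 4.72 FPKM in CK2, against 1.01, 2.49 and 0.98 FPKM in CK1.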
